A study of Mus musculus with 2 samples.

Results

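The 10 genes described here, Ccnd1, Ccnd2, Ccnd3, Ccne1, Ccne2, Cdk4, Cdk6, Cdkn1a, Cdkn1b and Cdkn2c, encode the cyclins, kinases and inhibitors of the G1 phase of the cell cycle. They were taken by symbol from the gene tables, and all 10 were found among 43346 mouse genes. The tables come from total RNA-seq of livers taken at embryonic day 11.5 from embryos of the mouse strain B6NCrl. The labels give 1 group with no treatment, no mutant allele and no control, and 2 libraries that are biological replicates 1 and 2. Replicate 1 was a pool of 109 embryos, and for replicate 2, likewise pooled, the sources do not give the number. Male and female embryos were mixed in both, and 10 ng of RNA above 200 nucleotides went into each library. Each value is therefore an average over many embryos and over every cell type of the organ, and fewer cells of a type cannot be told apart from less RNA per cell.

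D-type cyclins bind Cdk4 or Cdk6 in early G1, and E-type cyclins bind Cdk2 later, at the entry into S phase. The kinases phosphorylate the retinoblastoma family of pocket proteins, which frees E2F factors to drive genes of DNA replication. Inhibitors of the INK4 family, to which Cdkn2c belongs, bind Cdk4 and Cdk6 alone, and those of the CIP/KIP family, such as Cdkn1a and Cdkn1b, bind complexes of cyclin and kinase. The fetal liver is at this stage a site of red cell formation, and mice that lack all D-type cyclins, or both Cdk4 and Cdk6, are known to die before birth with failing blood formation.

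The labelled tissue was checked against marker genes. All 7 hepatoblast markers and all 7 red cell markers were detected, meaning a TPM of at least 1 in each library, where TPM is a level per length that sums to the same total in every library. Markers of mesenchyme (6 of 6), endothelium (6 of 6), macrophages (6 of 6), megakaryocytes (5 of 5) and blood progenitors (4 of 4) were detected as well. Heart muscle markers (5 of 6 detected) differed between the pools: their summed TPM, rescaled to mouse genes alone, was 310.6 in replicate 1 and 129.0 in replicate 2, and each of the 6 was at least 2-fold higher in replicate 1. Of 4 neural markers 2 were detected. Estimated counts summed to 34344230 in replicate 1 and 31477397 in replicate 2. Spike-in and numbered short features held 14.6% and 11.1% of TPM, which lowers every mouse gene by that share.

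The 10 members spanned a wide range of levels. All 10 were detected, against 56.6% of 21474 protein-coding genes. Their median TPM was 53.8, beside 2.86 over all protein-coding genes. Mean TPM ran from 1188 for Cdk4 to 5.55 for Cdkn2c. The kinase Cdk4 and the D-type cyclin Ccnd3 stood at the top, the E-type cyclins and the other D-type cyclins in the middle, Cdk6 below them, and the 3 inhibitors at the bottom.

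**Figure D1:**
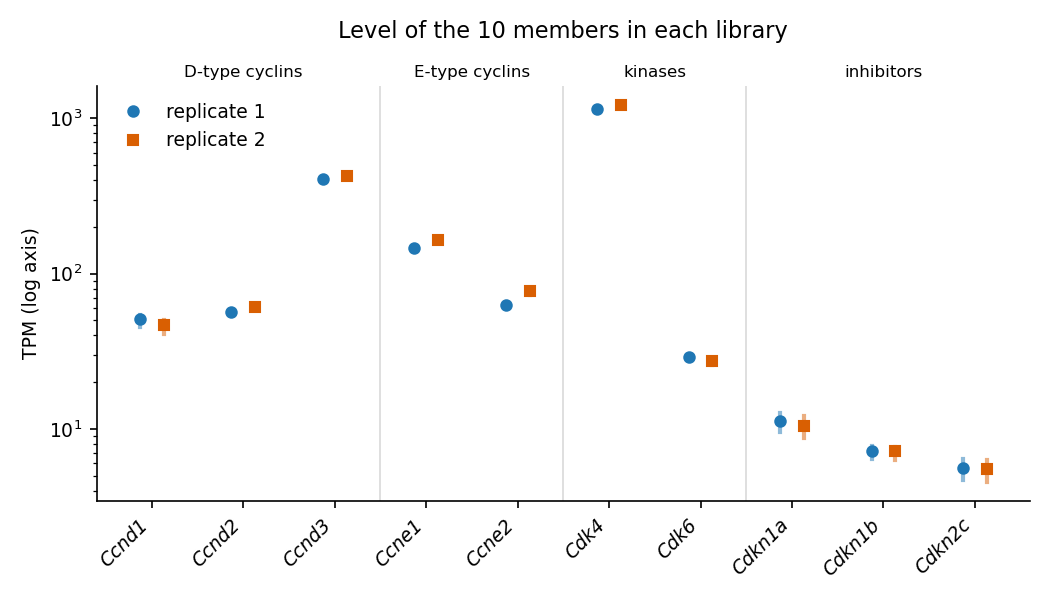
TPM of the 10 members (log axis) in replicate 1 (circles) and replicate 2 (squares), ordered by role; vertical bars are the deposited credibility intervals, hidden behind most points. Cdk4 and Ccnd3 are the highest and the 3 inhibitors are the lowest, in both libraries.

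A pair of neighbours in this order was called separated when its order was the same in the libraries, the credibility intervals deposited for the genes were apart and the mean log2 ratio was larger than the difference between the libraries. By that rule 7 of 9 neighbouring pairs were separated. The pairs that were not were Ccnd2 over Ccnd1, with a mean log2 ratio of 0.27 and a difference of 0.24 between the libraries, and Cdkn1b over Cdkn2c, with a mean log2 ratio of 0.37. The credibility intervals of Ccnd2 and Ccnd1 met in replicate 1, where Ccnd2 began at 54.0 and Ccnd1 ended at 54.3. Those of Cdkn1b and Cdkn2c met in replicate 2, where Cdkn1b began at 6.31 and Cdkn2c ended at 6.32. With 2 libraries the smallest p of an exact sign-flip test is 0.5, and the order is given without one.

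Ccnd3 carried most of the D-type cyclin message. This cyclin, known for its part in red cell formation, was at 404.7 TPM in replicate 1 and 422.2 in replicate 2 (413 ± 12.3, SD, n = 2), from 19391 and 17737 estimated counts. That put it at rank 277 among protein-coding genes, at percentile 98.7. Ccnd2, which serves proliferation in several blood and reproductive lineages, had 56.4 and 61.2 (58.8 ± 3.44, SD, n = 2). Ccnd1, a cyclin that answers growth signals in many epithelia, had 50.8 and 46.8 (48.8 ± 2.83, SD, n = 2). Ccnd3 was the highest of the 3 in each library, and the values of Ccnd2 and Ccnd1 lay close together in replicate 1.

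As a share of D-type cyclin TPM, Ccnd3 made up 79.1% in replicate 1 and 79.6% in replicate 2 (79.3% ± 0.396, SD, n = 2). Ccnd2 made up 11.3% ± 0.379 (SD, n = 2) and Ccnd1 9.37% ± 0.776 (SD, n = 2). Ccnd3 was thus 8.50 ± 0.745 times Ccnd1 (SD, n = 2), a ratio of 7.97 in replicate 1 and 9.02 in replicate 2. The shares depend on measuring per length: the Ccnd2 transcript in the tables is 5701 nucleotides and the main Ccnd3 transcript 1977, and as a share of counts Ccnd3 made up 62.1%.

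Nearly all Ccnd3 message was assigned to transcripts that start inside the gene. Ccnd3 (ENSMUSG00000034165.12, chr17:47505051-47599691, plus strand) has 21 annotated transcripts. Positions are those of GENCODE M21 on GRCm38, the assembly of the tables. A distal group of 13 starts between positions 47505051 and 47505241, and a proximal group of 3 starts between 47593436 and 47593529. The proximal group held 392.2 TPM in replicate 1 and 412.1 in replicate 2, and the distal group 3.84 and 2.71. As a share of the gene, the proximal starts carried 97.25% ± 0.509 (SD, n = 2) and the distal starts 0.80% ± 0.226 (SD, n = 2). A single proximal coding transcript, ENSMUST00000182209.3, held 96.7% ± 0.495 (SD, n = 2), and it was the main transcript in both libraries.

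The 2 start regions of Ccnd3 are shown because the libraries placed the message so unequally between them. Each line gives 300 bases of the RefSeq promoter table (assembly GRCm38.p6), read 5′ to 3′ on the gene's strand, from 250 bases before the RefSeq start to 50 after it. Capitals mark the motifs searched for on both strands, none of which contains another: TTTNGCGC for E2F factors, CACGTG as the E-box, GGGCGG as the GC box, the CCAAT box by its 5 letters, TATAAA as the TATA box and AGATAA for GATA factors. Matches that overlap were each counted. The distal window is chr17:47504801-47505100 and the proximal window is chr17:47593217-47593516, both on the plus strand.
Ccnd3 distal: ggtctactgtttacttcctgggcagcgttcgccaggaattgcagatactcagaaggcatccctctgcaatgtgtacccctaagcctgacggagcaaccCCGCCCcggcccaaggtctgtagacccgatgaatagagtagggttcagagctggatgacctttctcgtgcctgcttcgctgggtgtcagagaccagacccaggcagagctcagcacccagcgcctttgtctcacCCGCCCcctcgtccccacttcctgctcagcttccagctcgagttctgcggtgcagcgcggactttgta
Ccnd3 proximal: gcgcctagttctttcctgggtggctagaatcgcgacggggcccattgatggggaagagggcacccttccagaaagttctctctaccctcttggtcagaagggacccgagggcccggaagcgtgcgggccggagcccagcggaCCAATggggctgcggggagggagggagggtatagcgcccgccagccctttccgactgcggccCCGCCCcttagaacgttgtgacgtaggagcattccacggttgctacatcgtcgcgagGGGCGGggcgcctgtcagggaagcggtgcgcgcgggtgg
The GC content was 59.3% in the distal and 67% in the proximal window, beside a median of 52.7% over all windows. The shares below are over all windows and were not matched for GC content. Both windows held 2 GC boxes, a motif found in 35.7% of the 32851 windows in the table. The proximal window also held 1 CCAAT box, a motif found in 37.4%, and the distal window held none. The E2F, E-box, TATA and GATA letters matched in neither. A match is a description of letters, and RNA counts do not show what binds there.

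The other D-type cyclins had simpler transcripts. Ccnd2 (ENSMUSG00000000184.9, chr6:127125162-127152193, minus strand) was assigned to 1 coding transcript. Ccnd1 (ENSMUSG00000070348.4, chr7:144929931-144939925, minus strand) has a coding transcript of 3740 nucleotides, at 37.0 and 38.2 TPM in replicates 1 and 2, and a retained-intron transcript of 470, at 13.8 and 8.55. Rescaled to mouse genes alone, the coding transcript had 43.3 and 43.0 TPM and the retained-intron transcript 16.2 and 9.62. Which library was higher for the coding transcript thus turned with the scaling, while the short transcript was higher in replicate 1 on both scales. Only 132.3 and 71.5 estimated counts lay on that short transcript.

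The E-type cyclins activate Cdk2 and are turned over by ubiquitin ligases. Ccne1 was at 146.0 TPM in replicate 1 and 165.7 in replicate 2 (156 ± 13.9, SD, n = 2), at percentile 95.9. Ccne2 had 62.9 and 77.2 (70.1 ± 10.1, SD, n = 2), at percentile 90.4. Both were higher in replicate 2, and Ccne1 was above Ccne2 in each library. Ccne1 made up 69.9% and 68.2% of E-type TPM (69.1% ± 1.18, SD, n = 2), or 2.23 ± 0.124 times Ccne2 (SD, n = 2). One coding transcript, ENSMUST00000108023.5, held 97.8% ± 0.0707 (SD, n = 2) of Ccne1 (ENSMUSG00000002068.12, chr7:38097984-38107534, minus strand). For Ccne2 (ENSMUSG00000028212.12, chr4:11191351-11204779, plus strand) the main coding transcript held 80.0% ± 2.16 (SD, n = 2), and all 3 transcripts of the consensus coding sequence set (CCDS) together 95.01% ± 0.345 (SD, n = 2).

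Summed TPM of the D-type cyclins was 511.9 and 530.2, and that of the E-type cyclins 208.9 and 242.9. The D-type sum was 2.45 times the E-type sum in replicate 1 and 2.18 times in replicate 2 (2.32 ± 0.189, SD, n = 2). Cdk2, the kinase partner of the E-type cyclins, had 72.6 and 88.9. E-type cyclin TPM was 2.80 ± 0.103 times that of Cdk2 (SD, n = 2). In deposited TPM, Cdk2 stood above Cdk6 and far below Cdk4 in both libraries. The CCDS transcript of Cdk4 alone had 133.7 and 136.1 TPM, much nearer to Cdk2. The Cdk2 values are for the whole gene, which was not split by transcript, so the measures are unlike.

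Cdk4 had the highest deposited level of the 10. This kinase was at 1157 TPM in replicate 1 and 1219 in replicate 2 (1188 ± 43.6, SD, n = 2), from 23864 and 21755 estimated counts, and rank 74 among protein-coding genes. Cdk6, its close relative, had 29.0 and 27.4 (28.2 ± 1.12, SD, n = 2), from 2724 and 2247 counts. Its percentile was 79.4 among all protein-coding genes and 63.6 among the detected ones. Cdk4 was above Cdk6 by 39.9 times in replicate 1 and by 44.4 times in replicate 2 (42.1 ± 3.23, SD, n = 2). Cdk4 alone made up 97.7% ± 0.174 of the TPM of both kinases (SD, n = 2). Together the kinases had 2.33 ± 0.0236 times the TPM of the D-type cyclins (SD, n = 2), a ratio that was 0.328 with CCDS transcripts alone, 0.845 in counts and 1.01 with all reads over the CCDS transcript length.

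The size of the Cdk4 level rests on short transcripts. Cdk4 (ENSMUSG00000006728.8, chr10:127063534-127067920, plus strand) has 9 annotated transcripts, of which 1, ENSMUST00000006911.7 of 2053 nucleotides, has a CCDS coding sequence. That transcript had 133.7 TPM in replicate 1 and 136.1 in replicate 2, which is 11.4% ± 0.276 of the gene (SD, n = 2). A retained-intron transcript of 468 nucleotides, ENSMUST00000145670.1, had 479.5 and 501.9, or 41.3% ± 0.184 (SD, n = 2). A coding transcript of 950 nucleotides without a CCDS held 22.01% ± 0.438, and a transcript of 924 nucleotides marked for nonsense-mediated decay held 18.5% ± 0.757 (SD, n = 2 each). The order of these 4 transcripts was the same in both libraries. Of the bases of the 468-nucleotide transcript, 94.7% lie in exons that the CCDS transcript also has, so most of its reads could come from either. The effective length of the gene in the tables, weighted by these transcripts, was 799.0 bases in replicate 1 and 792.5 in replicate 2.

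**Figure D2:**
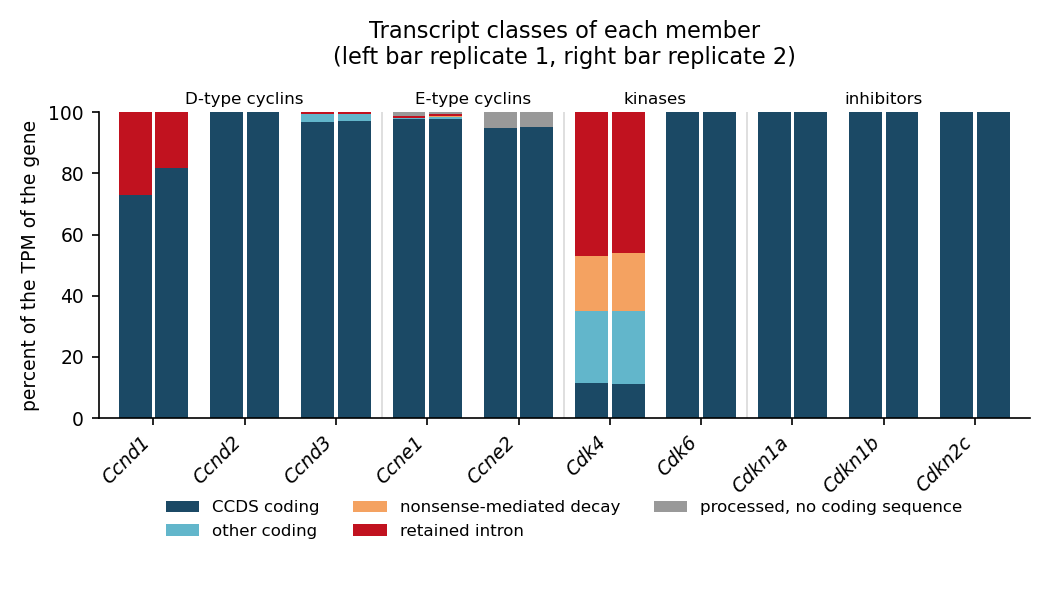
Percent of each member's TPM carried by classes of its annotated transcripts, with replicate 1 as the left bar and replicate 2 as the right bar of each gene. As a mean of the 2 libraries, CCDS transcripts carry 95.01% or more of 8 of the 10 members; Cdk4, at 11.4%, and Ccnd1, at 77.3%, are the others.

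On other length scales the lead of Cdk4 shrank or was lost. With all Cdk4 reads divided by the effective length of the CCDS transcript, Cdk4 came to 473.0 and 494.2 TPM (484 ± 15.0, SD, n = 2), beside 399.9 and 419.2 for Ccnd3 treated alike (410 ± 13.6, SD, n = 2). Cdk4 was then 1.18 times Ccnd3, where deposited TPM gave 2.87 times, and 17.2 ± 1.21 times Cdk6 (SD, n = 2). With CCDS transcripts alone, Cdk4 was 0.336 ± 0.00680 times Ccnd3 (SD, n = 2) and stood below Ccne1 in the order, and the ratio of Cdk4 to Cdk6 was 4.79 ± 0.251 (SD, n = 2). Cdk4 stayed above Cdk6 on all 3 scales and in raw counts, where it was 9.22 times Cdk6. These scales were added after the transcript values were seen.

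**Figure D3:**
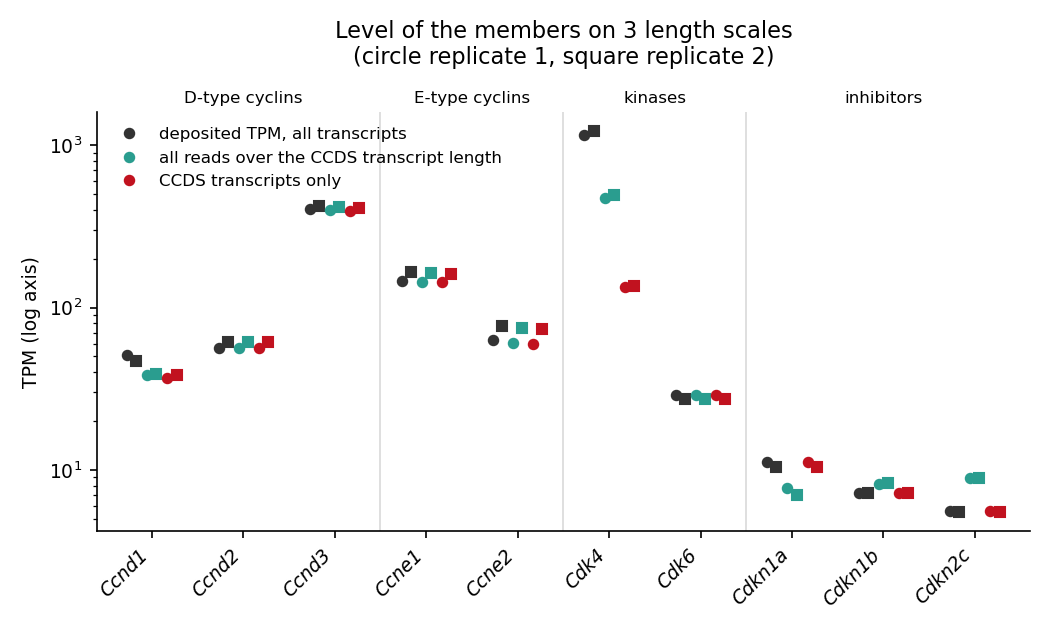
TPM of the 10 members (log axis) as deposited, with all reads over the length of the most abundant CCDS transcript, and with CCDS transcripts alone; circles are replicate 1 and squares replicate 2. Cdk4 moves from 1188 to 484 and 135 TPM, while Ccnd3 stays between 401 and 413.

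The Cdk4 start region is shown because it held 4 E-boxes, the letters CACGTG. This motif is the core sequence bound by Myc and related factors. The window is chr10:127063285-127063584 on the plus strand, with the same span and capitals as above.
Cdk4: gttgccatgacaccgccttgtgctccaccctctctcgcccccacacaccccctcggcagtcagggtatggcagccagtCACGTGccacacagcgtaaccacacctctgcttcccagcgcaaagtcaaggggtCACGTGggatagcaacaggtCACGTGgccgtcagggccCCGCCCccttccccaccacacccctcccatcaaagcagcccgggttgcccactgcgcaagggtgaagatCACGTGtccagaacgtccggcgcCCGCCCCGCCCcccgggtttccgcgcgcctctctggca
The E-boxes began at positions -172, -118, -98 and -11, counted from 0 at the RefSeq start. An E-box occurred in 7.15% of all 32851 windows, and 8 windows of the table, 0.0244%, held 4 or more. The Cdk4 window is among the 8 and was picked for this trait, so the share is a description and not a test. Its GC content was 67%, beside a median of 52.7% over all windows, and the shares were not matched for GC content. Among the members, 1 E-box each was found in the window of Cdk6 and in the proximal window of Cdkn2c. The table held 10 windows for 7 of the 10 members, and the E2F letters matched in 0 of the 10, beside 1.38% of all windows.

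The table transcript of Cdk6 (ENSMUSG00000040274.7, chr5:3341485-3531008, plus strand) that took all its reads is 3735 nucleotides, and the same transcript is 11525 nucleotides in the later GENCODE M21 annotation. Reads from the added stretch were not part of the Cdk6 value. Lengths differ also for Ccnd2, with 5701 nucleotides in the tables and 6330 in M21. For Cdkn1a, the transcript of 748 nucleotides in the tables has 922 in M21 and that of 857 has 1172, and the Cdkn1a values below rest on the table lengths.

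The 3 inhibitors had the lowest levels of the 10. Cdkn1a (p21), a target of p53, was at 11.2 TPM in replicate 1 and 10.5 in replicate 2 (10.8 ± 0.509, SD, n = 2), from 359 and 285 counts. Cdkn1b (p27), which holds back Cdk2 and helps assemble D-type cyclins with Cdk4, had 7.21 and 7.18 (7.20 ± 0.0212, SD, n = 2), from 487 and 430 counts. Cdkn2c (p18), of the INK4 family, had 5.59 and 5.51 (5.55 ± 0.0566, SD, n = 2), from 233 and 203 counts. Each inhibitor lay below every cyclin and kinase of the list in both libraries. Their percentiles among all protein-coding genes, detected or not, were 65.2, 59.8 and 56.8. Among detected protein-coding genes alone they were 38.5, 29.0 and 23.7.

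Together the 3 inhibitors had 24.0 and 23.2 TPM, and D-type cyclin TPM was 21.3 and 22.9 times that sum (22.1 ± 1.10, SD, n = 2). Cdkn1a made up 45.9% ± 1.02 of the inhibitor TPM, Cdkn1b 30.5% ± 0.669 and Cdkn2c 23.5% ± 0.346 (SD, n = 2 each). The order within the 3 depended on the transcript lengths. With all reads over the length of the most abundant CCDS transcript by TPM it was reversed, with Cdkn2c at 8.96 ± 0.00981, Cdkn1b at 8.27 ± 0.0690 and Cdkn1a at 7.33 ± 0.490 TPM (SD, n = 2 each). For Cdkn2c that length was 1106 nucleotides, while more of its counts lay on a transcript of 2471. The place of Cdkn2c on this scale thus rests on the length chosen. In counts Cdkn2c was the lowest of the 3 and Cdkn1b the highest.

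Cdkn2c (ENSMUSG00000028551.10, chr4:109660876-109667189, minus strand) was assigned to 2 coding transcripts with different starts. The longer, of 2471 nucleotides, starts at position 109667189, and the shorter, of 1106, at 109665372. The longer had 2.49 and 2.54 TPM and the shorter 3.09 and 2.97, so the shorter carried 54.6% ± 1.08 (SD, n = 2). By counts the order was the other way, with 152.5 and 135.7 on the longer and 80.5 and 67.3 on the shorter. Cdkn1a (ENSMUSG00000023067.9, chr17:29090976-29100727, plus strand) had 3 coding transcripts with separate starts, at 28.1% ± 10.0, 47.2% ± 1.31 and 24.7% ± 8.73 of the gene (SD, n = 2 each). The first and the last of these changed places between the libraries, on 33.2 to 67.7 counts each. Of Cdkn1b (ENSMUSG00000003031.10, chr6:134920401-134925513, plus strand), 84.1% ± 1.39 (SD, n = 2) was assigned to the shorter of 2 transcripts that share a start.

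Windows at the 2 RefSeq starts of Cdkn2c are shown because both of its transcripts carried message. The distal window is chr4:109666707-109667006 and the proximal window is chr4:109665323-109665622, both on the minus strand. The RefSeq start of the distal window is at position 109666756. The GENCODE start of the longer transcript, at 109667189, lies upstream of the whole distal window. That window therefore does not hold the start to which the distal message was assigned.
Cdkn2c distal: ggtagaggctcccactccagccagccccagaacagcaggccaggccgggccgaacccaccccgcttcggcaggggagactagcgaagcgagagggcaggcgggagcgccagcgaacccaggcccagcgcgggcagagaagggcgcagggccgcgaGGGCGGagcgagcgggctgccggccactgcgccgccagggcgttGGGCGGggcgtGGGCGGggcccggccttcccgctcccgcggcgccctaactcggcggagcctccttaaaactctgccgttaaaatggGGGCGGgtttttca
Cdkn2c proximal: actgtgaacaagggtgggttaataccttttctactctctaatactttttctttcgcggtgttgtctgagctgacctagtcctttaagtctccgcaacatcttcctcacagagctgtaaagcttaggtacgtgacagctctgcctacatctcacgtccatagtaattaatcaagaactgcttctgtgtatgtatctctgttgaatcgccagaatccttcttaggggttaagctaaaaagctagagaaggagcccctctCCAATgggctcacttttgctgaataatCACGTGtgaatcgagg
The distal window held 4 GC boxes and no other motif searched. The proximal window held 1 CCAAT box and 1 E-box, both after the start, and no GC box.

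The balance between cyclins and inhibitors depends on which inhibitors are counted. Cdkn1c (p57), an imprinted CIP/KIP inhibitor, had 351.6 and 360.6 TPM (356 ± 6.37, SD, n = 2), which is 15.1 ± 0.646 times the sum of the 3 members (SD, n = 2). Cdkn2d (p19), of the INK4 family, had 40.6 and 41.6 (41.1 ± 0.735, SD, n = 2). Cdkn2b (p15) had 0.54 and 0.24. Cdkn2a, which encodes p16 and p19ARF, had 0 counts in both libraries, which at this depth allows a TPM of up to 0.150 in replicate 1 (3 counts). With Cdkn1c and Cdkn2d added, inhibitor TPM was 416.1 and 425.3, of which Cdkn1c made up 84.6% ± 0.203 (SD, n = 2), and D-type cyclin TPM was 1.24 ± 0.0116 times it (SD, n = 2).

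Other genes of the G1 machinery were taken from lists and describe the setting of the 10. All 6 partner and activating genes were detected, with a median TPM of 55.7 beside 2.86 over protein-coding genes. Cdc37, a chaperone partner that loads Cdk4 onto Hsp90, had 178 ± 10.2, and Ccnh and Mnat1, which form the CDK-activating kinase with Cdk7, had 88.8 ± 9.04 and 24.2 ± 1.43 (SD, n = 2 each). Cdk7 had 16.5 ± 1.31 and Cdc25a, a phosphatase that activates Cdk2, 30.6 ± 2.73 (SD, n = 2 each). Cdk2 itself had 80.8 ± 11.5 (SD, n = 2).

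All 13 pocket proteins and E2F factors were detected, with a median TPM of 24.5. The highest were E2f4 at 217 ± 25.9, its DNA-binding partner Tfdp1 at 175 ± 12.9 and Tfdp2 at 45.1 ± 3.02 (SD, n = 2 each). Of 6 S-phase and mitotic genes 5 were detected, and the median was 218 TPM. They were the mitotic kinase Cdk1 at 356 ± 31.2, Ccnb1 at 285 ± 33.1, Ccna2 at 249 ± 29.9, Ccnb2 at 186 ± 17.6 and Ccnf at 79.5 ± 7.44 (SD, n = 2 each). Ccna1, a cyclin of the germ line, had 0.58 and 0.36.

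Genes that remove G1 cyclins and p27 were detected throughout. Of the ubiquitin ligase subunits that act on cyclin E and p27, Skp1a had 412 ± 39.6 TPM, Cks1b 392 ± 17.4, Rbx1 176 ± 2.64, Cul1 108 ± 4.47, Skp2 60.8 ± 6.31 and Fbxw7 5.01 ± 0.891 (SD, n = 2 each). Skp2, which recognises p27, had 8.45 ± 0.903 times the TPM of Cdkn1b (SD, n = 2). Of the genes that act on D-type cyclins, Gsk3b had 22.6 ± 0.0354, Fbxo31 15.5 ± 0.566, Ambra1 10.6 ± 0.191 and Fbxo4 3.53 ± 0.834 (SD, n = 2 each). Both lists were complete, with 6 of 6 and 4 of 4 genes detected.

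Because Cdkn1a is a p53 target, p53 and 9 of its other targets were read beside it. Of the 10, 9 were detected and the median TPM was 24.3. Trp53, which encodes p53, had 155 ± 6.99, and its targets Bax and Mdm2 had 146 ± 6.59 and 44.3 ± 1.96 (SD, n = 2 each). Eda2r had 0.30 and 0.53. Cdkn1a, at 10.8, lay below the median of that list.

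**Figure D4:**
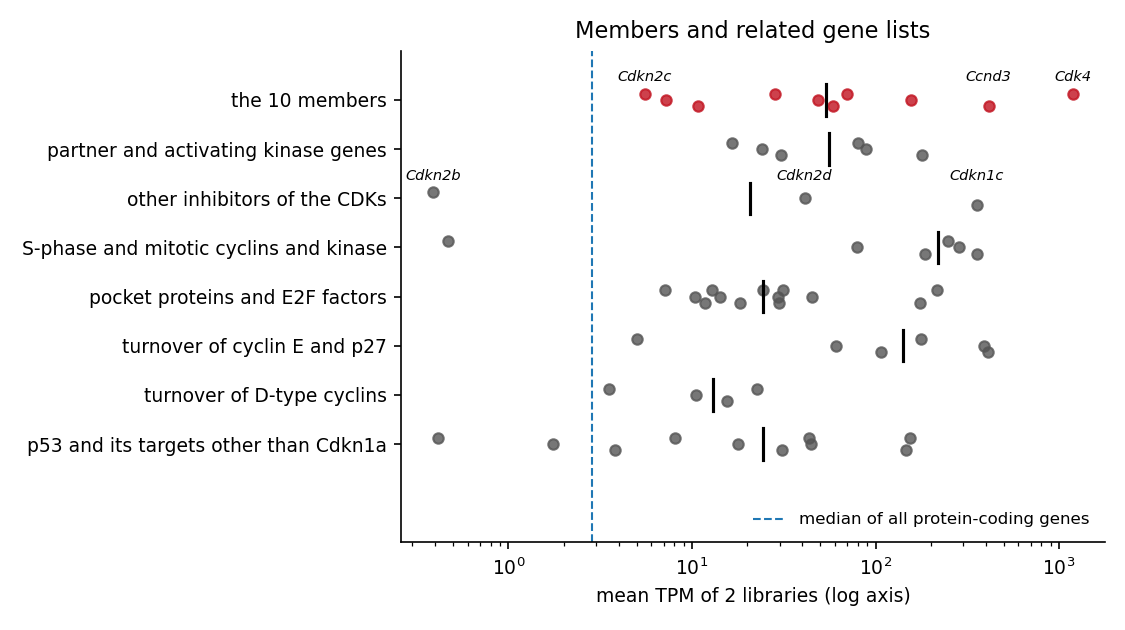
Mean TPM over the 2 libraries (log axis) of the 10 members and of 7 lists of related genes; each point is a gene, black bars are list medians and the dashed line is the median of all protein-coding genes, 2.86. Cdkn2a, at 0, is not drawn; Cdkn1c lies at 356, above all 3 member inhibitors.

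The libraries were compared with each other to see how far the members' levels repeat. Counts were scaled with TMM factors, and a log2 ratio above 0 means higher in replicate 1. None of the 10 members was 2-fold or more apart (0 of 10), while 4.41% of 16607 mouse genes at a mean of 10 or more counts were. Every member had a mean above 100 counts, and of the 12053 mouse genes at or above that mean 0.265% were 2-fold apart. Ratios of the members ran from -0.22 for Ccne2 to 0.22 for Cdkn1a. The SD of the ratio over 11522 protein-coding genes at a mean of 100 or more counts was 0.20. The ratio of Cdkn1a had a wide 95% exact binomial interval, -0.01 to 0.45, on its few counts.

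The interval left out 0 for 3 members. Cdk6 was higher in replicate 1, at 0.17 (0.08 to 0.25), and was 1 of 10 in that direction, beside 17.9% of all 16607 genes. Ccne1, at -0.10 (-0.15 to -0.05), and Ccne2, at -0.22 (-0.28 to -0.16), were higher in replicate 2 and were 2 of 10, beside 21.1% of all genes. With scaling by total counts, 5 of 10 members were higher in replicate 1, beside 20.7% of all genes, and 2 of 10 in replicate 2, beside 18.0%. The count in replicate 1 thus depends on the scaling, and the intervals cover counting error only. The shares over all genes include genes with few counts and wide intervals, and none was computed at the members' own depth. The direction was the same under all 6 settings of scaling and pseudocount tried for Ccnd1, Cdk6, Cdkn1a, Cdkn1b and Cdkn2c (higher in replicate 1) and for Ccnd2, Ccne1 and Ccne2 (higher in replicate 2). For Cdk4 and Ccnd3 it turned with the scaling, from -0.07 to 0.04 and from -0.06 to 0.04. The settings reuse the same 2 libraries, so a constant direction adds no evidence of a difference. On the TMM scale the intervals of Ccnd1, Ccnd2, Cdkn1a, Cdkn1b and Cdkn2c included 0. The CCDS transcript of Ccnd1 alone, not among the 6 settings, was higher in replicate 2 in deposited TPM (37.0 and 38.2). Rescaled to mouse genes it was higher in replicate 1 (43.3 and 43.0).

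**Figure D5:**
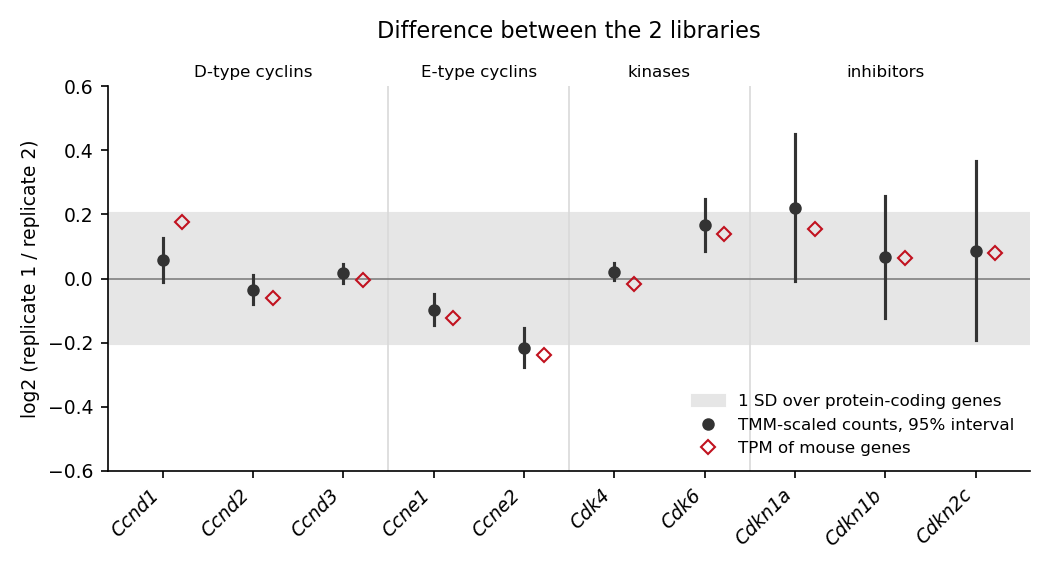
Log2 ratio of replicate 1 to replicate 2 for each member, from TMM-scaled counts (filled points, lines are 95% exact binomial intervals) and from TPM of mouse genes (open diamonds); the grey band is 1 SD, 0.20, over protein-coding genes. All 10 lie within 0.22 of 0 on the TMM scale.

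Genes of several lists, like the E-type cyclins, were higher in replicate 2. Intervals below 0, meaning higher in replicate 2, were found for 5 of the 6 S-phase and mitotic genes (not Ccna1). They were found too for 3 of the 6 partner and activating genes (Cdk2, Cdk7 and Cdc25a) and 5 of the 13 pocket proteins and E2F factors. The share over all genes at a mean of 10 or more counts was 21.1%. That share includes genes with few counts and wide intervals, and none was computed at the depth of the listed genes. Intervals were also below 0 for 5 of 7 red cell, 2 of 4 progenitor and 3 of 7 hepatoblast markers. Of the hepatoblast markers 2 were higher in replicate 1. Intervals were below 0 as well for 4 of 6 genes of cyclin E and p27 turnover and 2 of 4 of D-type cyclin turnover. So they were for 3 of 6 endothelial and 3 of 6 macrophage markers. In each of these last lists, 1 gene was higher in replicate 1. For the red cell markers the summed mouse-gene TPM was 9698 in replicate 1 and 10760 in replicate 2, and for the hepatoblast markers 11397 and 12254. The heart muscle markers went the other way, as given above. Of 6 mesenchyme markers, 4 were higher in replicate 1 and 1 in replicate 2 by the interval. The part of any of these in the members' values was not tested.

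Exons of 7 members overlap a gene on the opposite strand, a protein-coding gene in 4 of them, and the sources do not say whether the counting used strand. Tspan31 shares 641 bases with Cdk4, all within its CCDS transcript. Of these, 18 also lie in a retained-intron transcript of 2038 nucleotides, and none in the 468-nucleotide transcript. Tspan31 had 2974 and 2533 estimated counts. LTO1 shares 1100 bases with Ccnd1, Ints8 609 with Ccne2 and Bysl 361 with Ccnd3. Ccnd2 overlaps 2 antisense genes (372 and 368 bases), Cdk6 an antisense gene (368 bases) and Cdkn1a an unclassified transcript (273 bases). A processed pseudogene, Ccnd3-ps, matches the Ccnd3 CCDS transcript over 881 bases at 96.3% identity and had 8.44 and 11.0 counts.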

How the data were processed

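Per the labels, the samples are 2 libraries of total RNA from pooled livers, extracted with a mirVana kit, with spike-ins and a protocol named for Smart-seq. The authors deposited estimated counts, TPM with credibility bounds, and the percent of each gene carried by each transcript, on mm10 with GENCODE M4, per the file headers and notes. Credibility bounds can lie under the TPM itself. The aligner and quantifier: not given in the sources used here.

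Symbols and coordinates came from GENCODE M21 (GRCm38), which matched 42462 of 43346 genes. Estimated counts were rounded and scaled with TMM over mouse genes in edgeR, with a pseudocount of 0.5, or 0.1 for TPM. The step was tested on simulated counts that held counting error alone, without the further spread found between these libraries. Intervals are 95% exact binomial. Similar copies were sought with BLAST. With 1 group, no condition was tested. Agreement over 13889 genes gave a biological coefficient of variation of 7.88% (edgeR). No source names separate litters, so the spread may be technical in part.

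All members were named. Pathway lists of up to 6 genes were named whole, and of longer ones the highest 3 and those under a TPM of 1 in both libraries; marker lists are given as counts and sums. The members and lists were chosen with earlier results of these data known. Protein sequences were not analysed here.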

Additional observations from a re-analysis of the deposited data

How the results depend on the processing

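Counts not scaled by length moved all 6 ratios and shares: Ccnd3 was 62.1% of D-type cyclins, Ccne1 60.7% of E-type cyclins, Cdkn1a 32.2% of the 3 inhibitors, Cdk4 over Cdk6 9.22, the kinases over D-type cyclins 0.845 and D-type cyclins over the inhibitors 30.1. With CCDS transcripts alone, an alternative chosen after seeing the data, Ccnd3 was 80.6%, Cdk4 over Cdk6 4.79 and the kinases over D-type cyclins 0.328. With all reads over the CCDS transcript length, also chosen afterwards, Ccnd3 was 80.8%, Cdk4 over Cdk6 17.2, Cdkn1a 29.8%, the kinases over D-type cyclins 1.01 and D-type cyclins over the inhibitors 20.7. Adding Cdkn1c and Cdkn2d gave 1.24 for the last. For Cdkn2c the CCDS length used was that of its shorter transcript, which held fewer of its counts, and this enters the 29.8% and the 20.7. Posterior mean TPM changed none of the 6 by more than 1 SD. With either library left out, the 6 ranged from 79.1% to 79.6%, 68.2% to 69.9%, 45.2% to 46.7%, 39.9 to 44.4, 2.32 to 2.35 and 21.3 to 22.9. Separated neighbours numbered 7 of 9, also with posterior mean TPM and with a pseudocount of 1. Counts gave 9, CCDS transcripts alone 8 and all reads over the CCDS transcript length 9. On those scales the condition on credibility intervals was left out, so their numbers cannot be set beside the 7. Genes 2-fold apart numbered 732, against 448 with a pseudocount of 5, 5156 with no filter and 32 where the mean was at least 100 counts; no member was among them under any setting. Scaling by total counts put 5 members instead of 1 above the interval in replicate 1. The filters on counts leave each member's own ratio as it is. Depth limits the 3 inhibitors, at 203 to 487 counts. Percentiles among detected protein-coding genes alone were lower for every member, and ran from 99.4 for Cdk4 to 23.7 for Cdkn2c.

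No paired analysis was possible because the labels give 1 group.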
